A study of Mus musculus with 9 samples.

Results

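Rhd, Ermap, Aqp1 and Add2 are 4 genes of the red cell membrane, and they were followed here through libraries of mouse bone marrow cells sorted as megakaryocyte progenitors (MkP) or haematopoietic stem cells (HSC). They were chosen by name, with earlier results of these data known, as 4 of the 2402 genes in the table of normalized counts. The 9 samples came from male C57BL/6 mice in which Flt3-cre had been crossed to the mTmG reporter, so that a cell is red (Tom+) unless it or an ancestor made the Flt3-driven Cre, and green (GFP+) if one did. The groups were Tom+ MkP (2 samples), GFP+ MkP (2 samples) and Tom+ HSC (2 samples) from old mice of 18 to 20 months, and GFP+ MkP (3 samples) from young mice of 3 months. MkP were sorted as Lin- cKit+ Sca1- CD150+ CD41+ cells and HSC as Lin- cKit+ Sca1+ CD150+ Flk2- cells. The labels do not say whether the samples came from separate or pooled mice.

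The table has 9 rows without names, and nothing in the labels ties a row to a sample. No row was given a cell type, an age or a reporter colour, and no groups were compared. Rows are called libraries 1 to 9, as names only. The genes were described library by library, with the level of Ly6a, which encodes the Sca1 antigen of the sort, beside them. Ly6a was between 21.0 and 187 normalized counts in 7 libraries, and was 4256 in library 3 and 5772 in library 4. A line at 1000 normalized counts of Ly6a was used only to set which libraries a range, a test or a comparison of profiles covers. The values nearest to it were 187 in library 9 and 4256 in library 3. Reads summed over the table came to between 1790670 and 4373460 per library, which are not library depths, and 1 read was worth 0.724 to 1.96 normalized counts. Itga2b, the gene of the CD41 antigen that marks MkP, had 45798 to 77883 normalized counts in the 7 libraries with Ly6a under 1000, 1616 in library 3 and 6543 in library 4.

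Megakaryocytes and red cells descend from a shared precursor, and the factors GATA1 and GFI1B act in both lineages. Genes of the red cell surface and of the skeleton beneath it are switched on as erythroid progenitors mature. Rhd encodes a protein of the Rh complex of the red cell membrane. Ermap encodes an erythroblast membrane protein of the immunoglobulin family, which in humans carries the Scianna blood group. Aqp1 encodes a water channel that in humans carries the Colton blood group and is also made by endothelium. Add2 encodes beta-adducin, which caps actin filaments and binds spectrin under the membrane. RNA of a sorted population cannot tell fewer cells that make a transcript from less transcript per cell, and this holds for every level given here.

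In the mm10 assembly with GENCODE M21, Rhd (ENSMUSG00000028825.7) lies on chromosome 4 from 134864536 to 134896172 and Ermap (ENSMUSG00000028644.16) on chromosome 4 from 119175457 to 119190011. Aqp1 (ENSMUSG00000004655.5) lies on chromosome 6 from 55336432 to 55348555 and Add2 (ENSMUSG00000030000.10) on chromosome 6 from 86028681 to 86124409. All 4 are protein-coding. Of them, Add2 is overlapped by other annotated genes, Gm44090 and the antisense gene Gm44089, which are not among the columns of the table. Gm44090 lies on the same strand as Add2, so strand would not tell its reads in the overlap from those of Add2. The counting is not stated to use strand, so reads of Gm44089, on the other strand, could not be told from them either.

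The promoter windows of the 4 genes are shown because 3 of the genes had similar profiles over the libraries and the fourth, Aqp1, did not. The sequences are from RefSeq (GRCm38.p6) and run 5′ to 3′ on the strand of the gene, from 250 bases before to 50 bases after the start that RefSeq annotates. That start is the same as in GENCODE M21 for Rhd and Add2. It lies 16 bases downstream of the GENCODE start for Ermap and 133 bases upstream of it for Aqp1, whose window therefore ends before the GENCODE gene begins. Capitals mark GATAA, the core that GATA factors bind, and CACCC, the core that KLF factors bind, each on either strand (TTATC and GGGTG on the reverse). The windows are chr4:134864286-134864585 (+) for Rhd, chr4:119189946-119190245 (-) for Ermap, chr6:55336049-55336348 (+) for Aqp1 and chr6:86028431-86028730 (+) for Add2.
Rhd: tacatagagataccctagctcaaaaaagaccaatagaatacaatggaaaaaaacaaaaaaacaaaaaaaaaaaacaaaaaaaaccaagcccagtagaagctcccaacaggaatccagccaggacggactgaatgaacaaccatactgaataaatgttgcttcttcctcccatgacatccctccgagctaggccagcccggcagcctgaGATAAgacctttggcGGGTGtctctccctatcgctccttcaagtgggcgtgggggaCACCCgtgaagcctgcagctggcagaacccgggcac
Ermap: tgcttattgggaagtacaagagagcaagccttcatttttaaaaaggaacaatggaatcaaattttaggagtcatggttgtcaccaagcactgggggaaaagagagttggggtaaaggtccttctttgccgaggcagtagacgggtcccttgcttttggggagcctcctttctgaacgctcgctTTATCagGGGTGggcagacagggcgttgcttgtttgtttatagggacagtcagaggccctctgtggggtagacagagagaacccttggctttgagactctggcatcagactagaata
Aqp1: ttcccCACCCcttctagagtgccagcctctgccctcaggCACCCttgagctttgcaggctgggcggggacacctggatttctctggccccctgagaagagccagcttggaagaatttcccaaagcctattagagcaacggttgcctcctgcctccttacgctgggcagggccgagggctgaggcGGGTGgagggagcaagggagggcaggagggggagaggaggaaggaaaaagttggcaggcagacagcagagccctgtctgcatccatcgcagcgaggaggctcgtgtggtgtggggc
Add2: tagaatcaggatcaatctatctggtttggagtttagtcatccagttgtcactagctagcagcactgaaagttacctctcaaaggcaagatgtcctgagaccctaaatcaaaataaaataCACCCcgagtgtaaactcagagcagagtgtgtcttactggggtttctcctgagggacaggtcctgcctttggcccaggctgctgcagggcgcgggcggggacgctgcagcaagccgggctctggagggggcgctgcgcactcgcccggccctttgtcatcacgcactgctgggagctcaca
GATAA was found 1 time in the Rhd window, from -42 to -38 relative to the RefSeq start, and 1 time in the Ermap window, on the reverse strand from -67 to -63. The Aqp1 and Add2 windows held no GATAA. The other motif, CACCC, was found 2 times in the Rhd window, 1 time in the Ermap window, 3 times in the Aqp1 window and 1 time in the Add2 window. Of 32851 windows of the same length, 25.4% held GATAA and 57.5% held CACCC on either strand. The reverse-strand match to CACCC began at -60 in the Ermap window and at -27 in the Rhd window, after the match to GATAA in each. These are matches of letters in a window, not binding sites.

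With 1 added to each value, Rhd had the widest range of the 4 genes. Counting intervals of its ratio without 1 added overlapped with those of Ermap over the 9 libraries and of Add2. Rhd had 1187 normalized counts in library 5, 768 in library 7, 744 in library 6 and 665 in library 2. Library 1 had 212 and library 9 had 98.5. Libraries 4, 3 and 8 had 9.15, 4.72 and 3.15, which are 8, 4 and 3 reads. Among the libraries with Ly6a under 1000, Rhd was thus between 3.15 and 1187 around a median of 665. The ratio of library 5 to library 8 was 377, with a 95% exact conditional binomial interval from 129 to 1832 that covers counting error only. Without library 8 the highest was 12.0 times the lowest over these libraries (interval 10.1 to 14.5). Libraries 7 and 6 did not differ beyond their counting intervals (702 to 838 and 682 to 810).

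Ermap followed nearly the same order at a lower level. It had 352 normalized counts in library 5, 316 in library 6, 234 in library 2, 167 in library 7 and 118 in library 1. Library 9 had 50.7. The lowest were library 8 with 10.5, library 4 with 5.72 and library 3 with 2.36, which are 10, 5 and 2 reads. Their counting intervals overlapped, from 5.03 to 19.3 in library 8, from 1.86 to 13.4 in library 4 and from 0.286 to 8.52 in library 3. Over the libraries with Ly6a under 1000, library 5 had 33.6 times the level of library 8 (interval 18.0 to 70.7), and 6.94 times that of library 9, the lowest without library 8 (interval 5.35 to 9.12). Over all 9 libraries the ratio of library 5 to library 3 was 149 (interval 41.0 to 1237), and without library 3 the highest was 61.5 times the lowest (interval 26.1 to 191).

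Add2 was the least abundant. It had 113 normalized counts in library 5, 112 in library 6, 78.5 in library 2 and 69.1 in library 7. It had 36.1 in library 1 and 15.9 in library 9. Library 3 had 3 reads (3.54), library 8 had 2 reads (2.10) and library 4 had 0 reads. The counting interval in library 4 ran up to 4.22 normalized counts. Against a floor of 3 reads in library 4, or 3.43 normalized counts, Add2 was 32.9-fold higher in library 5. The exact interval of the ratio of library 5 to library 4, which also covers counting error in library 5, began at 26.3. Over the libraries with Ly6a under 1000 the ratio of library 5 to library 8 was 53.9 (interval 14.5 to 451), and without library 8 it was 7.09, against library 9 (interval 4.45 to 11.8). Libraries 5 and 6 could not be told apart in Add2 at this depth (intervals 92.3 to 137 and 88.7 to 139).

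Aqp1 behaved differently from the other 3. It was highest in library 8, with 8514 normalized counts, where Rhd and Add2 had 3 and 2 reads. Library 9 had 7318, and libraries 6, 5, 2, 7 and 1 had 6527, 6486, 6161, 5662 and 5422. Libraries 4 and 3 had 294 and 280, and their counting intervals overlapped (259 to 332 and 245 to 317). Over the libraries with Ly6a under 1000 the highest was 1.57 times the lowest (interval 1.51 to 1.64). That ratio was 1.35 without library 8 (interval 1.30 to 1.40) and, with 1 added to each value, 2.54 when libraries were scaled to their table total. Over all 9 libraries library 8 had 30.5 times the level of library 3 (interval 26.8 to 34.8).

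**Figure D1:**
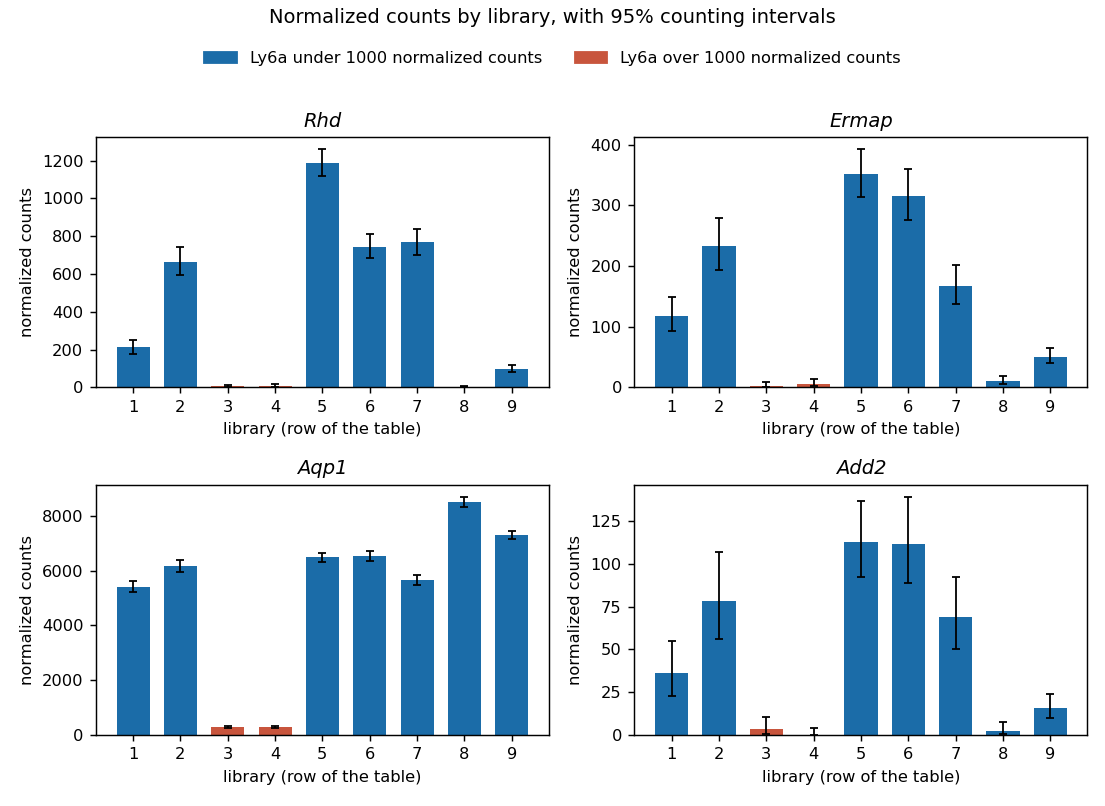
Normalized counts (vertical axes, linear, a separate scale for each gene) of Rhd, Ermap, Aqp1 and Add2 in each of the 9 libraries. Bars are the deposited values, lines are exact 95% Poisson counting intervals, and colour shows whether Ly6a was under or over 1000 normalized counts. Library 8 has the highest bar for Aqp1 (8514) and 3.15, 10.5 and 2.10 for Rhd, Ermap and Add2.

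Reads of all 4 genes differed between the 9 libraries beyond counting error, in a chi-square test adjusted by Benjamini-Hochberg over 2341 genes. So did 98.7% of the genes tested. Over the 7 libraries with Ly6a under 1000 the test again called all 4, against 87.4% of 2133 genes, so a call says little about these genes. The size of the range describes them better. The 4 genes were chosen with earlier results of these data known, so their ranks by range are a description and not support. With 1 added to each value, the highest library was at least 4-fold the lowest for all 4 genes over the 9 libraries, against 66.4% of genes. Over the 7 libraries it was so for Rhd, Ermap and Add2 and not for Aqp1, against 20.8% of genes. Among those 2133 genes, 99.95% had a narrower range than Rhd, 98.9% than Add2 and 98.6% than Ermap, whereas 13.4% had a narrower range than Aqp1. The median gene had a 2.32-fold range over these 7 libraries. The tests compare libraries, not conditions.

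Ratios between genes within a library do not depend on how libraries were scaled. They were taken on reads per kb of merged exons (1.594 kb for Rhd, 5.297 kb for Ermap, 2.627 kb for Aqp1 and 10.139 kb for Add2). Ermap and Add2 kept close to 1 ratio. In the 6 libraries with at least 22 reads of Add2, Ermap had 5.69 times the Add2 level in library 2, 5.96 in library 5, 5.41 in library 6, 4.64 in library 7, 6.26 in library 1 and 6.09 in library 9. Their intervals all overlapped, the widest being 3.84 to 10.6 in library 1. Library 8 had 9.57 with an interval from 2.04 to 89.8, resting on 2 reads of Add2, and library 3 had 1.28 (interval 0.107 to 11.1).

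Rhd did not keep a fixed ratio to Ermap. Per kb, Rhd was 15.2 times Ermap in library 7 (interval 12.4 to 18.9), 11.2 times in library 5 (9.88 to 12.7), 9.47 times in library 2 and 7.82 times in library 6. It was 6.46 times Ermap in library 9 (4.80 to 8.74) and 5.95 times in library 1 (4.43 to 8.06). The intervals of libraries 7 and 5 lay above those of libraries 1 and 9. In library 8 the ratio was 0.997, from 3 reads of Rhd and 10 of Ermap, and its interval from 0.176 to 3.87 lay below that of each other library with over 100 reads of Rhd. Library 8 was thus low in Rhd beyond its low Ermap.

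Set against Aqp1, the other genes differed far more. Per 1000 of Aqp1 on the per-kb scale, Rhd stood at 302 in library 5 (interval 282 to 322), 223 in library 7, 188 in library 6, 178 in library 2 and 64.3 in library 1. It stood at 22.2 in library 9 (18.6 to 26.3) and 0.609 in library 8 (0.126 to 1.78). Libraries 4 and 3, with low values of both genes, had 51.3 (21.9 to 103) and 27.8 (7.52 to 72.2), higher than library 8. Add2 per 1000 of Aqp1 was 4.51 in library 5 and 0.0638 in library 8 (0.00773 to 0.231). Per kb, the levels in library 5 were 2469 normalized counts for Aqp1, 744 for Rhd, 66.5 for Ermap and 11.1 for Add2. In library 8 they were 3241 for Aqp1 and 1.98 for both Rhd and Ermap.

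**Figure D2:**
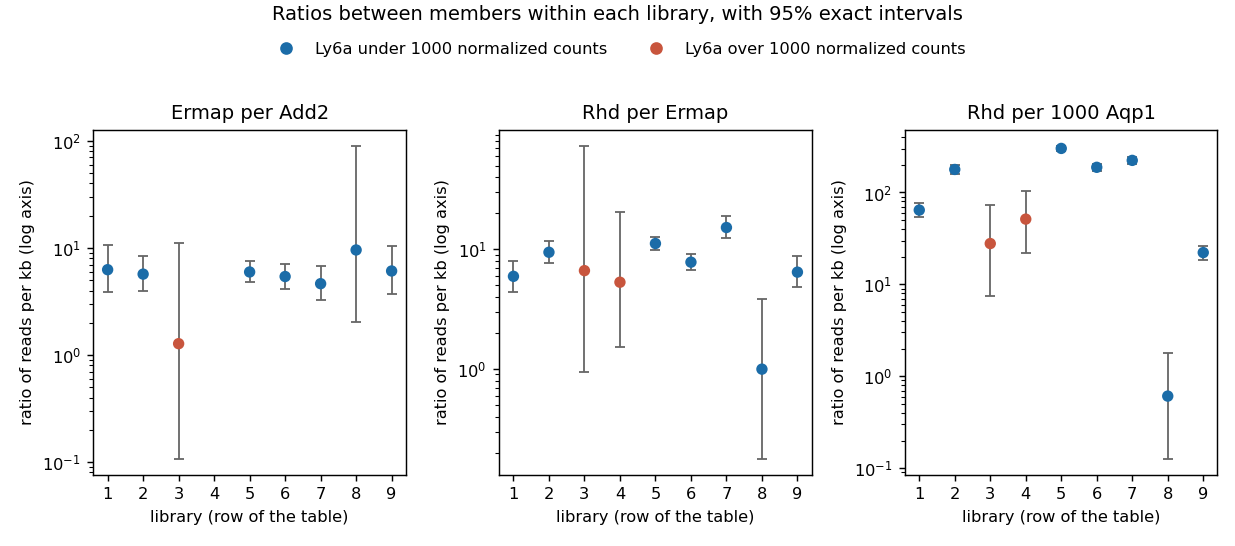
Ratios of reads per kb between genes within each library (log axes), with exact 95% intervals. Ermap per Add2 stays between 4.64 and 6.26 in libraries 1, 2, 5, 6, 7 and 9, while Rhd per 1000 Aqp1 lies at 302 in library 5 and 0.609 in library 8. Library 4 has no point for Ermap per Add2 because Add2 had 0 reads there.

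The profiles were also set against every other gene of the table. Likeness was the root mean square difference of log2(normalized count + 1), centred on each gene, over the 9 libraries. The genes nearest to Rhd were Ermap (0.98), Col5a1, a collagen gene (1.05), and Add2 (1.14), where the median gene was at 3.36. Those nearest to Ermap were Col5a1 (0.55), Rapsn, which clusters acetylcholine receptors at the synapse (0.61), and Cst7, which encodes cystatin F (0.70). Those nearest to Add2 were Serpinb10, a serine protease inhibitor (0.40), Col5a1 (0.67) and Ermap (0.79). Rhd was not among the nearest to either. With predicted genes included, it ranked 21 of the 2340 genes compared seen from Ermap, and 13 seen from Add2. Col5a1 itself did not exceed 39.2 normalized counts and had 0 in libraries 3, 4 and 8. Over the 7 libraries with Ly6a under 1000 the nearest to Ermap of the genes compared was Add2, and the nearest to Add2 was Ermap, at 0.18. The next for both was Slc38a5, an amino acid transporter, at 0.32 from Ermap and 0.33 from Add2. Rhd ranked 44 there seen from Ermap and 16 seen from Add2. This 7-library comparison was chosen after the values had been seen.

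Aqp1 lay among other genes. Over the 9 libraries Pdcd4, which encodes an inhibitor of translation, was nearest (0.29), followed by Mir8116 (0.29), whose annotated position overlaps Ache, and Sla, an adaptor protein gene (0.40) that overlaps Tg. Pdcd4 had 6914 normalized counts in library 8, and 369 and 437 in libraries 3 and 4. Aqp1 was 2.49 from Rhd, 1.59 from Ermap and 1.76 from Add2 over the 9 libraries, with the median gene at 2.21 from Aqp1. Over the 7 libraries Rhd was 2.80 from Aqp1, farther than any other gene of the 2340 compared, with the median gene at 0.49. Rhd had a wide range there and Aqp1 a narrow one, so a large distance follows from the measure. Seen from Rhd, Aqp1 ranked 1380 of the 2340, near the median gene at 2.71.

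**Figure D3:**
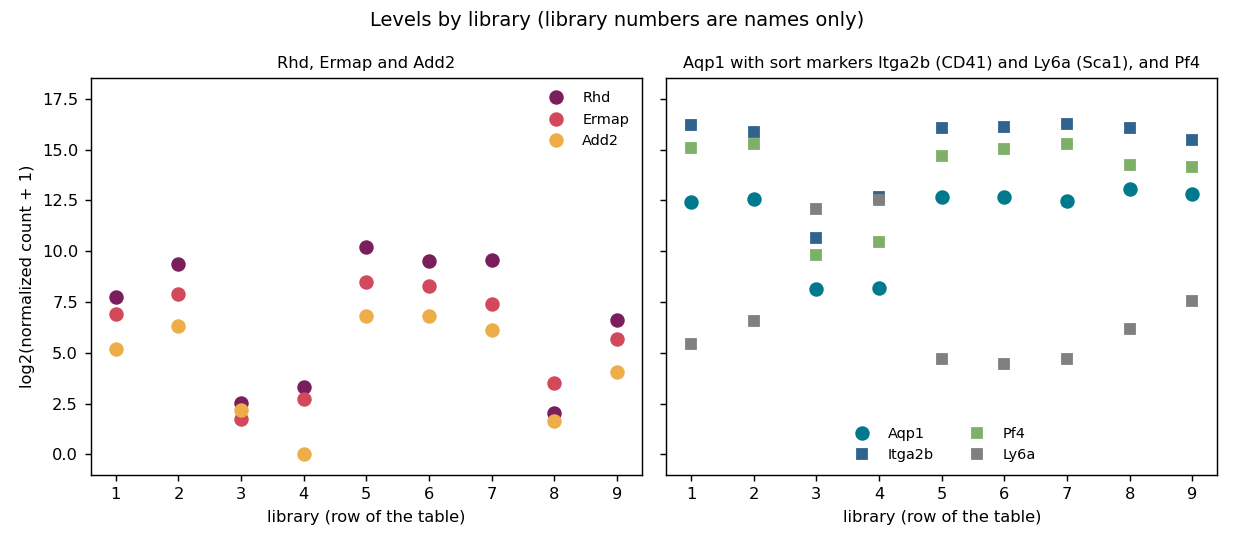
Log2(normalized count + 1) by library for Rhd, Ermap and Add2 (left) and for Aqp1, Itga2b, Pf4 and Ly6a (right). Rhd, Ermap and Add2 are low in libraries 3, 4 and 8, whereas Aqp1, Itga2b and Pf4 are low in libraries 3 and 4 but not in library 8.

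Of 81 genes in 4 erythroid lists, 21 were matched by symbol in the table, and the other genes are not analysed here. The genes not analysed include the globins and Klf1, so the erythroid label rests on membrane, haem and regulator genes. Of the 17 matched genes other than Rhd, Ermap, Aqp1 and Add2, 16 had at least a 4-fold range with 1 added over the 9 libraries, where 66.4% of all genes had one. Over the 7 libraries with Ly6a under 1000, 5 of the 17 had one, where 20.8% of all genes did. That share leaves out genes that did not reach 10 normalized counts in 2 of these libraries. The list genes were not filtered so, and Bcam and Sema7a, which had such a range, would not have passed. The median range of the 17 was 20.3-fold over the 9, where the median of all genes was 6.16-fold. It was 2.55-fold over the 7, where the median of all genes was 2.32-fold.

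Of the 7 other matched membrane and blood group genes, 3 (Art4, Bcam and Sema7a) had at least a 4-fold range over the 7 libraries with Ly6a under 1000. The share was 20.8% among all genes that passed the filter. Bcam and Sema7a did not pass it there, with at most 16.8 and 7.34 normalized counts, so their ranges rest on few reads. Icam4, Mfsd2b and Abcg2 had ranges of 1.85-fold, 1.73-fold and 2.00-fold there, under the median gene. Slc14a1, the urea transporter that carries the Kidd blood group in humans, had 11843 normalized counts in library 8, 12744 in library 9 and 20041 to 30251 in libraries 1, 2, 5, 6 and 7. Mfsd2b, which exports sphingosine-1-phosphate from red cells and platelets, had 2811 to 4871 over the 7 libraries, and 16.5 and 88.1 in libraries 3 and 4. Icam4, an adhesion molecule of the Landsteiner-Wiener group in humans, had 942 to 1747 over the 7 libraries. Art4, which carries the Dombrock group in humans, ran the other way from Rhd. It had 4045 in library 3, 3214 in library 4, 1884 in library 8 and 797 in library 9, and 69.5 to 177 in libraries 1, 2, 5, 6 and 7. Bcam, the Lutheran group protein, had 439 and 269 in libraries 3 and 4 and at most 16.8 in the others. Abcg2, a membrane transporter, had 1763 and 1467 in libraries 3 and 4 and 436 to 872 in the others. Sema7a did not exceed 24.8 and was at 0 in 5 libraries.

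The skeleton list had 2 matched genes of 11, Add2 and Sptb, which encodes beta-spectrin. Sptb was at 27.9 in library 1 and at 0 in libraries 3 and 4, and had 5.24 in library 8. The 3 matched haem genes of 22 varied less than Rhd. Alad, an early enzyme of haem synthesis, had 1538 in library 8 and 4544 in library 7. Urod, an enzyme of a later step, had 1898 to 2679 over the 7 libraries, and Tmem14c, which serves mitochondrial porphyrin transport, had 1237 to 3393. None of the 3 reached a 4-fold range over the 7 libraries, and Alad and Tmem14c did over the 9.

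Among 6 matched regulators of 21, Samd14, which promotes Kit signalling in erythroid cells, was the gene with a 4-fold range over the 7 libraries. It had 731 in library 8 and 733 in library 9, and 2871 to 5510 in libraries 1, 2, 5, 6 and 7. Gata1 had 4170 normalized counts in library 8 and 3626 in library 9, 6364 to 8053 in libraries 1, 2, 5, 6 and 7, and 37.8 and 165 in libraries 3 and 4. Rhd had 3.15 normalized counts in library 8 and 98.5 in library 9. Gfi1b, which encodes a transcriptional repressor that acts in both lineages, had 2895 to 7593 over the 7 libraries. It had 2895 in library 2, which had 665 of Rhd, and 2956 in library 8. The part of Gata1 and Gfi1b in the level of Rhd was not tested. Hemgn, an erythroid nuclear protein gene, had 899 to 1373 over the 7 libraries. Myb and Bcl11a were highest in libraries 4 and 3, at 1032 and 1131, and had 246 to 464 in the others.

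**Figure D4:**
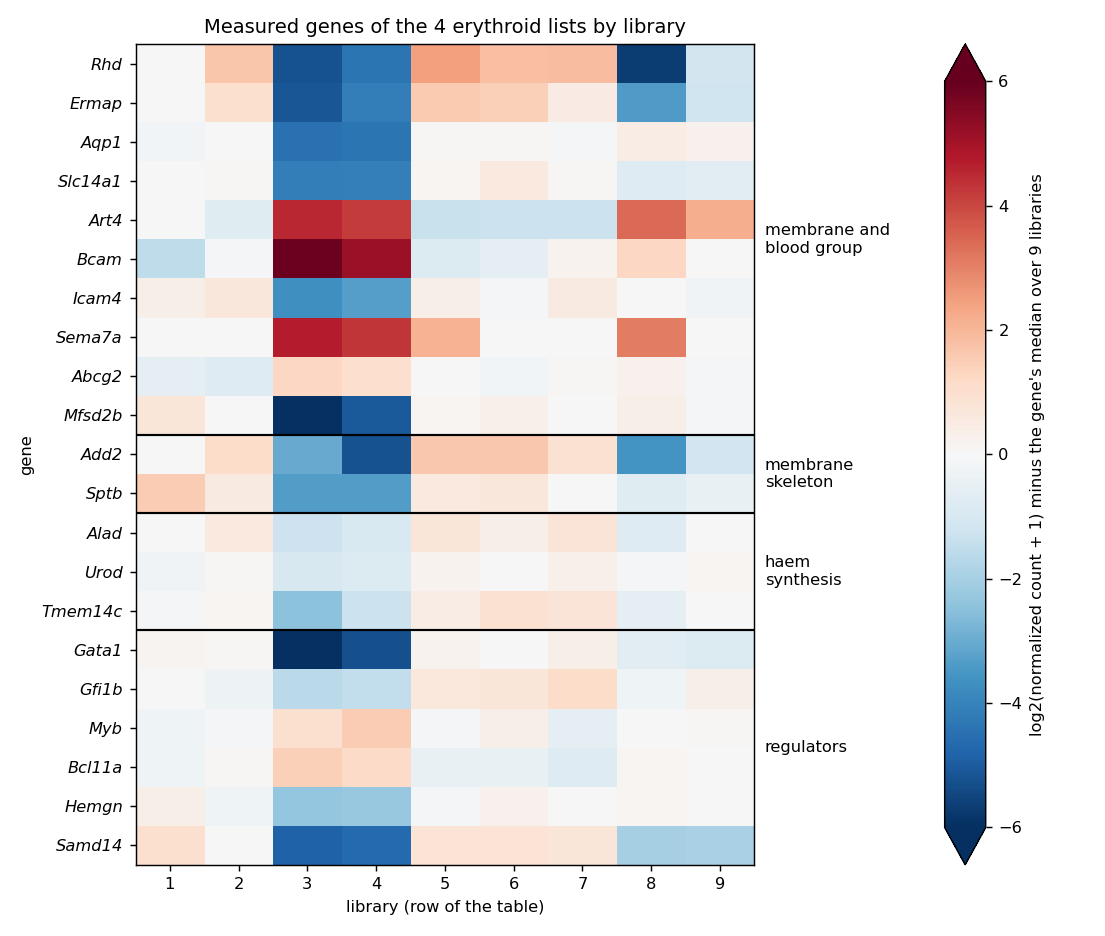
Each measured gene of the 4 erythroid lists (rows) in each library (columns), as log2(normalized count + 1) minus the gene's median over the 9 libraries; values beyond the scale take its end colours. Rhd, Ermap and Add2 are blue in libraries 3, 4 and 8, Aqp1, Mfsd2b and Icam4 are blue in libraries 3 and 4, and Art4 is red in libraries 3, 4, 8 and 9.

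Markers of other cell types moved over the same libraries. The 9 matched stem cell markers of 11 summed to 3193 normalized counts in library 8 and 2133 in library 9, to 789 to 883 in libraries 1, 2, 5, 6 and 7, and to 24781 and 16792 in libraries 3 and 4. In libraries 8 and 9, Tie1 (1676 and 918) and Ndn (804 and 718) made up most of the sum. Procr (17.4) and Mecom (9.42) in library 9, and Ly6a (71.3) in library 8, lay within their values in libraries 1, 2, 5, 6 and 7. The other values in libraries 8 and 9 lay above those. Hoxb5, a stem cell transcription factor gene of that list, had 195 in library 8 and 112 in library 9, and at most 11.8 in libraries 1, 2, 5, 6 and 7. The 10 matched megakaryocyte markers of 16 summed to 116752 in library 8, 93013 in library 9, 142656 to 180212 in libraries 1, 2, 5, 6 and 7, and 7379 and 13457 in libraries 3 and 4. This sum was mostly Itga2b, Pf4 and Cd9, and the markers did not move together in library 8. Gp9 (3237) and Gp1ba (730) were highest there among the 9 libraries. Itga2b and Gp1bb lay within their values in libraries 1, 2, 5, 6 and 7. Pf4, Gp5, Treml1, Ppbp, Cd9 and F2rl2 lay below those values. The 4 matched granulocyte and monocyte markers of 7 summed to 2142 in library 8 and 1982 in library 9, to 366 to 1547 in libraries 1, 2, 5, 6 and 7, and to 12916 and 12329 in libraries 3 and 4. Prtn3 made up most of each sum, with 2006 in library 8 and 12248 in library 3. Csf1r and Cebpa of that list did not follow it. Csf1r had 0 in library 3, 1.14 in library 4 and 82.6 in library 9. Cebpa had 0 in libraries 3 and 4 and was highest in library 2, at 41.2. The 3 matched T and NK cell markers of 4 did not move together. Nkg7 had 2153 in library 8, 6507 in library 9, 13914 to 27162 in libraries 1, 2, 5, 6 and 7, and 185 and 667 in libraries 3 and 4, and it made up most of the sum of the list (723 in library 3 to 27179 in library 2). Klrb1c ran the other way, with 493 and 469 in libraries 3 and 4, 68.2 in library 8, and at most 12.3 in the others, including 0 in libraries 2 and 6. Lck was also highest in libraries 3 and 4, at 44.8 and 43.5. The 2 matched endothelial markers of 4, Emcn and Cldn5, summed to 1213 and 2110 in libraries 3 and 4 and to at most 48.2 in the others, with Emcn at 0 in library 6. Single markers of mast cells and basophils (Fcer1a), macrophages (Cd5l) and B cells (Vpreb1) were at most 103, 39.8 and 12.3. The part of these markers in the levels of Rhd, Ermap, Aqp1 and Add2 was not tested.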

How the data were processed

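Messenger RNA of 9 sorted samples was sequenced, with Trizol extraction and a NEBNext Ultra kit per the labels' protocols. The submitters' processing notes name mm10, Bowtie2, STAR and DESeq without roles or versions. How reads were counted, with which annotation, and why these genes were kept is not given in the sources used here. Deposited values are normalized counts, a signal scaled per library by the authors, for 2402 genes. Rows have no names, so the planned limma comparison of groups was not run.

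Low values in each row were whole multiples of 1 step. Dividing by it gave whole reads within 0.1 for 100% of values in each library. Genes that reached 10 normalized counts in 2 libraries or more were tested by chi-square on these reads against 1 rate per library, at an adjusted p of 0.05. Ratios have exact conditional binomial intervals at 95%. Ranges on the log2 scale use a pseudocount of 1, which understates those of low genes. A count of 0 was set to a floor of 3 reads for a fold against it. Symbols of 2258 genes matched GENCODE M21. The steps were tested on simulated data (Python 3.11.15, scipy 1.17.1).

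The 4 genes, the lists and the tests were chosen with earlier results of these data known. Genes named are the 4 genes, the sort markers, the measured list genes and the 3 nearest profiles of each of the 4, leaving out predicted genes. 1 list gene is not reported here. Other scalings, pseudocounts, no filter and leaving out libraries were tried.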

Additional observations from a re-analysis of the deposited data

How the results depend on the processing

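The values in this paragraph are differences of log2(normalized count + 1) between the highest and the lowest library, unless a count is named. Of 127 alternatives run, 115 left the value within its counting interval, or the count within 1.5 times, and 12 moved it. The interval was that of the ratio without 1 added. It was wide where reads were few, and had no upper end for Add2 over the 9 libraries. The counts are of only 4 genes. Staying within these limits therefore says little. All 4 genes differed between libraries under every scaling, filter and set of libraries tried. In the main setting 98.7% of all genes did so over the 9 libraries and 87.4% over the 7, so this says little about the 4. Of the 4 genes, 3 had a 4-fold range over the libraries with Ly6a under 1000 under each scaling and with each library left out. In the main setting 20.8% of all genes had one. The shares of all genes under the alternatives were not computed. Over the 9 libraries the main values were 8.16 for Rhd, 6.72 for Ermap, 4.92 for Aqp1 and 6.83 for Add2. Restricting to the libraries with Ly6a under 1000 gave 4.94 for Ermap and 0.65 for Aqp1. Aqp1 was at 4.55 over the 9 libraries when scaled to the table total and at 5.52 under median-of-ratios scaling, and Add2 at 4.56 with a pseudocount of 5. Within the libraries with Ly6a under 1000, a set of alternatives chosen after seeing the data, Aqp1 was at 1.34 when scaled to the table total, against 0.65. Leaving out each library in turn gave 7.54 to 8.16 for Rhd, 5.71 to 6.72 for Ermap, 4.71 to 4.92 for Aqp1 and 5.20 to 6.83 for Add2 over the 9 libraries, and 3.58 to 8.16 for Rhd, 2.77 to 4.94 for Ermap, 0.43 to 0.65 for Aqp1 and 2.75 to 5.20 for Add2 over those with Ly6a under 1000. The lower ends over the libraries with Ly6a under 1000 are without library 8. The cause of these differences was not tested.
Relative to the deposited scaling, scaling to the table total shifted libraries by -0.56 to 0.64 on the log2 scale and median-of-ratios scaling by -0.52 to 0.19, the same shift for every gene of a library. Depth limits Rhd, Ermap and Add2 in libraries 3, 4 and 8, where each had 10 reads or fewer. No paired analysis was possible because the rows carry no sample names or replicate numbers.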
